A study of Mus musculus with 9 samples.

Results

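Secretoglobins and other secreted defence proteins of the airway were followed in whole mouse lung after intranasal PM2.5, fine airborne particulate matter. The set held 9 genes of 18875 in the expression table, taken by gene symbol: the secretoglobins Scgb1a1, Scgb3a1 and Scgb3a2, the BPI fold genes Bpifa1 and Bpifb1, the lectin gene Reg3g, the antibody carrier gene Pigr, the lactoferrin gene Ltf and the receptor subunit gene Gabrp. Lungs came from wild-type mice of the inbred strain BALB/c, in 9 libraries. The 3 long-term PM2.5 libraries came from mice given 10 mg/kg through the nose 6 times, at intervals of 3 days. The 3 short-term PM2.5 libraries came from mice given the same dose 1 time. The 3 PBS libraries are labelled as a long-term exposure to PBS, which matches the long-term but not the short-term exposure in duration. The number of instillations, the total dose and the time over which they were given therefore cannot be told apart. The time from the last instillation to collection is not stated and may differ between the groups. Whether each library is a separate mouse is not stated, and the p-values cover no more than the spread among them, which may be technical.

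Club cells are the dome-shaped secretory cells of the small airways, and secretoglobins, small secreted proteins that form dimers, are their best known products. With mucins, lipid-binding BPI fold proteins, lactoferrin and transported antibodies they make up the fluid that lines the airway and limits the growth of inhaled microbes. Airway secretory cells can change from a club to a mucus-producing goblet state after allergen or irritant exposure, and some secreted defence genes are active in both states.

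Expression was given in TPM, a level per transcript length, scaled so that all libraries add up to the same total. All 9 genes passed the filter of 1 TPM in at least 3 libraries, and their lowest value in any library was 10.7 TPM. Differences are given between group means of log2(TPM + 1), and a gene was called changed at an adjusted p under 0.05 in limma, fitted to 13991 genes. The short-term libraries stood apart from the rest. Their difference from PBS varied with transcript length: the median difference from PBS in the tenth of genes with long transcripts, minus the same in the tenth with short ones, was -1.68, -0.81 and -1.03 (log2) in the 3 short-term libraries, against -0.205 to -0.134 in the long-term and -0.056 to 0.042 in the PBS libraries. At least 1 TPM was reached by 12560, 13414 and 13175 genes there, against 13534 to 13930 genes in each of the other 6 libraries. Over all genes the median difference was 0.03 between long-term PM2.5 and PBS, -0.34 between short-term PM2.5 and PBS and 0.41 between the exposures. Differences corrected for the length and GC content of transcripts are therefore given for the 9 genes, and for some genes and counts of the marker lists.

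After long-term PM2.5, Ltf, Bpifb1, Scgb3a1, Reg3g, Pigr and Gabrp were higher than with PBS, while Scgb1a1, Scgb3a2 and Bpifa1 did not pass the test. These 6 of 9 genes stood against 9.51% of all tested genes called higher, and none of the 9 was called lower by limma, at an unadjusted p under 0.05 either, against 1.72% of all genes. The median difference of the 9 genes was 1.58, against 0.03 over all tested genes. The long-term and PBS libraries did not overlap in 7 of the 9 genes, against 43.2% of all genes. After short-term PM2.5, Reg3g, Bpifb1 and Pigr were higher than with PBS (11.7% of all genes) and Scgb3a2 was lower (40.3% of all genes). These 4 of 9 genes stood against 51.9% of all genes called in either direction, and the median difference was 0.50, against -0.34 over all genes. Libraries of short-term PM2.5 and PBS did not overlap in 4 of the 9 genes, against 60.3% of all genes. Between the 2 exposures, Ltf, Scgb3a2, Scgb3a1, Gabrp, Bpifb1 and Pigr were higher with long-term than with short-term PM2.5, against 43.4% of all genes called higher and 50.5% called in either direction. None of the 9 was lower by limma there, at an unadjusted p under 0.05 either, against 7.08% of all genes. Their median difference was 1.23, against 0.41 over all genes, and 7 of the 9 genes did not overlap, against 60.1% of all genes. Both exposures were compared with the same 3 PBS libraries, so their differences from PBS are not independent of each other. In whole lung, fewer cells of a type and less RNA per cell cannot be told apart.

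After the length and GC correction, 6 of the 9 genes were higher after long-term PM2.5 than with PBS, against 13.1% of all genes. For short-term PM2.5 against PBS 4 were higher, against 23.8% of all genes, and 2 were lower, against 26.1%. Between long-term and short-term PM2.5 7 were higher, against 19.2% of all genes, and none was lower in limma, against 22.2%, since the corrected differences of all 9 genes were above 0.

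**Figure D1:**
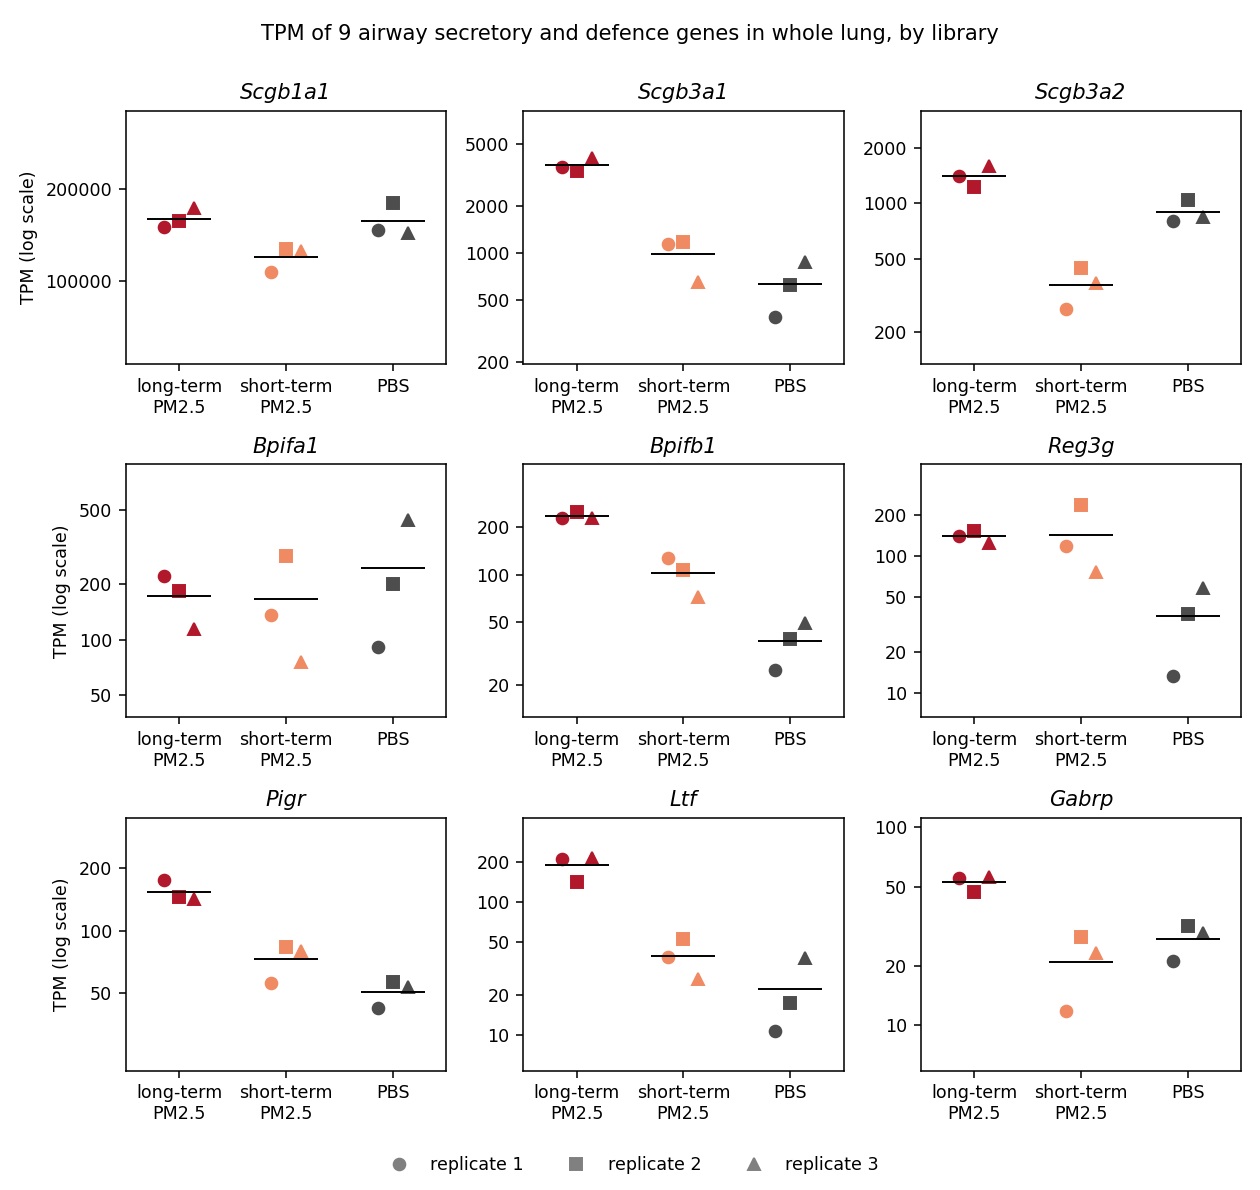
TPM of the 9 genes on log axes, 1 panel a gene, with 1 point a library (marker shape gives the replicate number) and a line at the arithmetic mean of the 3 libraries of a group. The 3 long-term libraries lie above both other groups for Scgb3a1, Scgb3a2, Bpifb1, Pigr, Ltf and Gabrp, all 3 groups overlap for Bpifa1, and the 3 short-term libraries lie below both other groups for Scgb1a1 and Scgb3a2.

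Bases upstream of the transcription start are shown for Scgb3a1, Bpifb1, Reg3g and Ltf, the 4 genes with the largest differences between long-term PM2.5 and PBS, and for Bpifa1, the neighbour of Bpifb1 whose groups overlapped. Sequences are the 250 bases before the start on the strand of the gene, from RefSeq on GRCm38.p6. Windows were searched for 7 of the 9 genes: Scgb1a1 had no entry, and Scgb3a2 was left out of the search. The window of Gabrp, which is not shown, overlaps the first bases of the gene. Capitals mark matches on either strand to any of 6 motifs: TTCNNNGAA (STAT), TTC and GAA with 4 bases between (STAT6 spacing), TGTTTAC (forkhead), TTGCNNAA (C/EBP), GGGA and CC with 4 bases between (NF-kB) and CTCAAG (Nkx2-1).
Scgb3a1, chr11:49663345-49663594, plus strand: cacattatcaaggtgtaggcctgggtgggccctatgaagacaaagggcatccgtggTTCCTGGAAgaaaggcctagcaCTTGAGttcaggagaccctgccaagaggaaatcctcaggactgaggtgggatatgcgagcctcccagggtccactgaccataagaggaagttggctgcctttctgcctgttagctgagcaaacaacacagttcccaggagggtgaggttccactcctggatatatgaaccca
Bpifb1, chr2:154190568-154190817, plus strand: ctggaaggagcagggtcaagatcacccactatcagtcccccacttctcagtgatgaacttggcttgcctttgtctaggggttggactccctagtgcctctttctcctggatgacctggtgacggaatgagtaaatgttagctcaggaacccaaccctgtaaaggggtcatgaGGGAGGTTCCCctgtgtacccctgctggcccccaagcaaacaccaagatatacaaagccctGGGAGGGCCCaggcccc
Bpifa1, chr2:154142630-154142879, plus strand: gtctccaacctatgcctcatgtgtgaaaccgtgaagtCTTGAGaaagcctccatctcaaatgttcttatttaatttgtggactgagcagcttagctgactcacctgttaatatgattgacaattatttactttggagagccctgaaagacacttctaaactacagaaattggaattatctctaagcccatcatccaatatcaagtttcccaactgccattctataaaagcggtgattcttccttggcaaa
Reg3g, chr6:78468875-78469124, minus strand: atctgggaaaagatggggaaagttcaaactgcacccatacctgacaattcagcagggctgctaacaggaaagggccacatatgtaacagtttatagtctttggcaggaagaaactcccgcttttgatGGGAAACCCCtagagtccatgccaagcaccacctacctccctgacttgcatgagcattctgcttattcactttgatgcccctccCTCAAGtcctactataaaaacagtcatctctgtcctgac
Ltf, chr9:111019042-111019291, plus strand: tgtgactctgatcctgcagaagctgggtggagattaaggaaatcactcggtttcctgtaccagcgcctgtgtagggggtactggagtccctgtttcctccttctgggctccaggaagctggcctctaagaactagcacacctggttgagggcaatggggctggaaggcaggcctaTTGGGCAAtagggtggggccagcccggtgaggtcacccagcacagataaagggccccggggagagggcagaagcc
Counted back from the start, Scgb3a1 had a TTCNNNGAA match at -194, which 7.02% of 32851 windows of this length also hold, and a CTCAAG match at -172, held by 13.3% of windows. Bpifb1 had 3 NF-kB matches at -78, -77 and -17, of which the first pair overlap, and 17.6% of windows hold at least 1. Bpifa1 had CTCAAG at -213, Reg3g had an NF-kB match at -123 and CTCAAG at -39, and Ltf had TTGCNNAA at -75, a motif in 9.56% of windows. The STAT6 spacing (5.85% of windows) and TGTTTAC (3.17%) had no match in the 7 windows searched. No motif was found in all 4 windows of the genes with the largest differences, and a match describes letters, not binding.

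Scgb1a1 (gene ID 22287, chromosome 19, 9083642 to 9087956, GRCm38.p6) encodes the club cell secretory protein, the most abundant secretoglobin of the lung. It was the top gene of all 9 libraries, 3.76 to 5.50 times above the next gene, which was Sftpc of alveolar type 2 cells or the haemoglobin gene Hba-a1. It took 15.0%, 15.7% and 17.3% of all TPM with long-term PM2.5, 10.7%, 12.8% and 12.5% with short-term PM2.5 and 14.7%, 18.1% and 14.4% with PBS. Long-term and PBS libraries overlapped, while every short-term library was below every PBS library.

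The difference of Scgb1a1 between long-term PM2.5 and PBS was 0.03 ± 0.20 (log2, ± SE; 95% interval -0.42 to 0.49; limma adjusted p = 0.967). Between short-term PM2.5 and PBS it was -0.39 ± 0.20 and did not pass (limma adjusted p = 0.133), although it passed with no intensity trend (0.0413) and with robust eBayes (0.0244), and it was -0.04 relative to the median of all genes. Its transcript of 476 bases is among the short ones, which were comparatively higher in the short-term libraries, and after the length and GC correction its difference was -0.84 (limma adjusted p = 0.0017). Between the exposures the difference was 0.42 (limma adjusted p = 0.108) and 0.67 after the correction (limma adjusted p = 0.00775). Among the 13792 genes of the correction, 67 had transcripts as short or shorter. Libraries were treated with duplex-specific nuclease, which removes copies of abundant transcripts, and TPM does not show whether Scgb1a1 was depleted to the same degree in each library.

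Scgb3a1 (gene ID 68662, chromosome 11, 49663595 to 49665118), a secretoglobin best known from the trachea and bronchi, was at 3565, 3384 and 4085 TPM with long-term PM2.5, 1153, 1179.6 and 658 TPM with short-term PM2.5 and 389, 622 and 884 TPM with PBS. All 3 long-term libraries were above every other library, and short-term replicate 3 lay within the range of PBS. The mean was 3678 ± 364 TPM with long-term PM2.5 and 632 ± 247.5 TPM with PBS (SD, n = 3 each), 5.82 times as high, with a difference of 2.61 ± 0.29 (limma adjusted p = 0.000339). Between short-term PM2.5 and PBS the difference was 0.69 ± 0.29 and did not pass (limma adjusted p = 0.069). It was 0.21 after the length and GC correction, and it passed without short-term replicate 3 (0.96, limma adjusted p = 0.0233) and without PBS replicate 3 (0.97, limma adjusted p = 0.0242), and with median-ratio scaling (1.04, limma adjusted p = 0.0243). Long-term PM2.5 exceeded short-term PM2.5 by 1.93 (limma adjusted p = 0.000967).

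Scgb3a2 (gene ID 117158, chromosome 18), a secretoglobin of club cells throughout the bronchi and bronchioles, was lowest with short-term and highest with long-term PM2.5. It was at 1402, 1231 and 1590.5 TPM with long-term PM2.5, 267, 448 and 367 TPM with short-term PM2.5 and 802, 1045 and 848 TPM with PBS, and the 3 groups did not overlap. Short-term PM2.5 had 2.49-fold lower mean TPM than PBS, with a difference of -1.34 ± 0.19 (limma adjusted p = 0.000595), or -0.99 relative to the median of all genes and -1.67 after the length and GC correction. The difference between long-term PM2.5 and PBS was 0.65 ± 0.19 and did not pass (95% interval 0.23 to 1.07; limma adjusted p = 0.0511). It passed in 4 of 19 alternatives, among them those without short-term replicate 1 (limma adjusted p = 0.00527) or short-term replicate 2 (limma adjusted p = 0.0166), libraries that enter this comparison only through the shared spread. Long-term PM2.5 exceeded short-term PM2.5 by 1.99 ± 0.19 (limma adjusted p = 0.000106). The remaining secretoglobin in the table, Scgb1c1, was lower after both exposures, at 25.5, 26.3 and 26.0 TPM with long-term PM2.5, 33.5, 22.7 and 30.0 TPM with short-term PM2.5 and 41.0, 50.4 and 39.0 TPM with PBS (limma adjusted p = 0.0154 for long-term and 0.0118 for short-term PM2.5 against PBS).

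Bpifa1 and Bpifb1 encode secreted lipid-binding proteins of the BPI fold family and lie on chromosome 2 with 41.6 kb between them. Bpifa1 (gene ID 18843), a surface-active protein of the upper airway with antimicrobial activity, was at 219.7, 184 and 115 TPM with long-term PM2.5, 136, 284 and 76.1 TPM with short-term PM2.5 and 91.9, 200.2 and 442 TPM with PBS. The 3 groups overlapped, and the PBS libraries alone spanned 4.81-fold. The difference from PBS was -0.27 ± 0.56 with long-term PM2.5 (95% interval -1.51 to 0.97; limma adjusted p = 0.888) and -0.49 ± 0.56 with short-term PM2.5 (95% interval -1.73 to 0.76; limma adjusted p = 0.481). Neither passed in any of 19 alternatives, and both signs turn without PBS replicate 3, to 0.30 and 0.08.

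Bpifb1 (gene ID 228801, 154190818 to 154220343), a product of airway secretory and goblet cells, was at 229, 248 and 226 TPM with long-term PM2.5, 126, 107 and 71.9 TPM with short-term PM2.5 and 25.05, 39.2 and 49.35 TPM with PBS. The 3 groups did not overlap, with long-term PM2.5 highest and PBS lowest. Long-term PM2.5 had 6.19 times the mean of PBS, 234 ± 11.9 TPM against 37.9 ± 12.2 TPM (SD, n = 3 each), with a difference of 2.65 ± 0.25 (limma adjusted p = 0.000124). Short-term PM2.5 had 2.69 times the mean of PBS, with a difference of 1.42 ± 0.25 (limma adjusted p = 0.00155) and 1.34 after the length and GC correction. Long-term PM2.5 exceeded short-term PM2.5 by 1.23 ± 0.25 (limma adjusted p = 0.00366). All 3 calls were kept in all 19 alternatives. The other 10 BPI fold genes of the table were low: 9 were not tested, none of them above 0.75 TPM in any library, and the summed level of all 10 was 4.27 to 8.79 TPM over the 9 libraries.

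Reg3g (gene ID 19695, chromosome 6, 78466269 to 78468874) encodes a secreted C-type lectin that binds the cell wall of Gram-positive bacteria. It was at 142, 155 and 125 TPM with long-term PM2.5, 119, 237 and 76.8 TPM with short-term PM2.5 and 13.2, 38.1 and 59.0 TPM with PBS. Both exposures lay above PBS in every library and overlapped each other. Long-term PM2.5 had 3.83 times the mean of PBS, with a difference of 2.13 ± 0.49 (limma adjusted p = 0.0183). That call was lost without long-term replicate 1 (limma adjusted p = 0.0669), long-term replicate 2 (0.0637) or PBS replicate 2 (0.0534) and with no filter on low values (0.0625), and the difference was 1.54 without PBS replicate 1. For short-term PM2.5 the mean was 3.94 times that of PBS, with a difference of 2.02 ± 0.49 (limma adjusted p = 0.00733), called in all 19 alternatives and 1.43 without PBS replicate 1. The difference between long-term and short-term PM2.5 was 0.11 ± 0.49 (95% interval -0.98 to 1.2; limma adjusted p = 0.861), which does not show that the exposures act alike.

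Ltf (gene ID 17002, chromosome 9, 111019292 to 111042766) encodes lactoferrin, an iron-binding antimicrobial protein of airway secretions that neutrophils also store in granules. It had the largest difference of the 9 genes between long-term PM2.5 and PBS, at 213, 141 and 217 TPM with long-term PM2.5, 38.6, 52.3 and 26.5 TPM with short-term PM2.5 and 10.7, 17.2 and 38.1 TPM with PBS. Long-term libraries were above all others, and the short-term and PBS libraries overlapped through PBS replicate 3. Long-term PM2.5 had 8.64 times the mean of PBS, 190.0 ± 42.7 TPM against 22.0 ± 14.3 TPM (SD, n = 3 each), with a difference of 3.21 ± 0.39 (limma adjusted p = 0.000577). Between short-term PM2.5 and PBS the difference was 0.93 ± 0.39 and did not pass (limma adjusted p = 0.0665). It was 1.27 relative to the median of all genes, and it passed with median-ratio scaling (1.27), with quantile scaling (1.21), after the length and GC correction (1.21, limma adjusted p = 0.0209) and without PBS replicate 3 (1.41, limma adjusted p = 0.00939). Long-term PM2.5 exceeded short-term PM2.5 by 2.28 ± 0.39 (limma adjusted p = 0.00181).

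Since neutrophils also hold lactoferrin, their markers are given beside Ltf. Of 11 tested neutrophil genes 1 was higher after long-term PM2.5 than with PBS, against 9.51% of all genes. It was Cd177 (2.79), a surface protein of neutrophils, and the other 10 did not pass (median 0.04, against 0.03 over all genes). After the length and GC correction Ly6g also passed, and was lower (-0.55, limma adjusted p = 0.0464). Their summed level was 383 to 667 TPM with long-term PM2.5, 1038 to 1540.0 TPM with short-term PM2.5 and 380.4 to 609.6 TPM with PBS. After short-term PM2.5, 9 of the 11 were higher than with PBS, against 11.7% of all genes. Among them were Cd177 (2.07), S100a8 (2.0), Cxcr2 (1.25) and Csf3r (1.14). After the correction 8 were higher, against 23.8% of all genes. None of the 13 genes in the list was at 0 in every library. The granule genes Ngp and Camp did not pass in any comparison, with differences of -0.72 and -0.74 between long-term PM2.5 and PBS and -0.73 and 0.15 between short-term PM2.5 and PBS. The part of neutrophils in the level of Ltf was not tested.

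Pigr (gene ID 18703, chromosome 1, 130826684 to 130852249) encodes the polymeric immunoglobulin receptor, which carries IgA and IgM across the epithelium into the airway. It was at 175, 146 and 142 TPM with long-term PM2.5, 55.9, 83.9 and 79.75 TPM with short-term PM2.5 and 42.55, 56.7 and 53.7 TPM with PBS. The long-term libraries were above all others, and short-term replicate 1 lay within the range of PBS. Long-term PM2.5 had 3.02 times the mean of PBS, 154 ± 18.1 TPM against 51.0 ± 7.47 TPM (SD, n = 3 each), with a difference of 1.58 ± 0.17 (limma adjusted p = 0.000318). Between short-term PM2.5 and PBS the difference was 0.50 ± 0.17 (limma adjusted p = 0.0337), 0.84 relative to the median of all genes and 1.0 after the length and GC correction (limma adjusted p = 0.000107). The uncorrected call was lost without short-term replicate 2 (limma adjusted p = 0.0727), short-term replicate 3 (0.106), PBS replicate 1 (0.132) or PBS replicate 3 (0.0601), with no filter (0.0614) and with these 2 groups alone (0.0654). Long-term PM2.5 exceeded short-term PM2.5 by 1.08 ± 0.17 (limma adjusted p = 0.00134), or 0.50 after the correction.

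The cargo side of Pigr was covered by 8 tested genes of IgA and plasma cells. None of them passed in limma between long-term PM2.5 and PBS, although 3 were higher at an unadjusted p under 0.05, and the largest difference was 1.0 for Jchain, the joining chain of polymeric antibodies (limma adjusted p = 0.095). After short-term PM2.5, Derl3 was higher than with PBS (1.23, and 1.01 after the length and GC correction). Irf4 (-0.51) and Prdm1 (-0.90) were called lower, but both calls were lost after the correction, at 0.16 and -0.33 (limma adjusted p = 0.408 and 0.0919). In the corrected values 3 genes of this list were higher with short-term PM2.5 than with PBS, against 23.8% of all genes. With long-term PM2.5 1 was higher, against 13.1%. Igha, the heavy chain of IgA, was not analysed here.

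Gabrp (gene ID 216643, chromosome 11, 33550781 to 33578978) encodes the pi subunit of the GABA type A receptor, a chloride channel found in epithelia outside the brain. It was at 55.6, 47.0 and 55.7 TPM with long-term PM2.5, 11.8, 27.8 and 23.2 TPM with short-term PM2.5 and 21.0, 31.5 and 29.4 TPM with PBS. Long-term libraries were above all others, and the other groups overlapped. Long-term PM2.5 had 1.93 times the mean of PBS, 52.8 ± 4.99 TPM against 27.3 ± 5.55 TPM (SD, n = 3 each), with a difference of 0.94 ± 0.27 that passed narrowly (limma adjusted p = 0.0489). Of 19 alternatives 8 kept this call, and it was lost without any of the 6 libraries compared (limma adjusted p from 0.086 without PBS replicate 2 to 0.208 without PBS replicate 1) and without short-term replicate 3 (0.0713). Between short-term PM2.5 and PBS the difference was -0.43 (limma adjusted p = 0.198), and 0.03 after the length and GC correction. Without short-term replicate 2 it was -0.66 and passed (limma adjusted p = 0.0355). Long-term PM2.5 exceeded short-term PM2.5 by 1.37 ± 0.27 (limma adjusted p = 0.00344), or 0.79 after the correction. Of the other 15 GABA receptor subunits, 13 were under the filter. Gabra3 and Gabre, at 2.40 TPM or less in every library, did not pass in limma in any of the 3 comparisons. Gabra3 was at an unadjusted p under 0.05 in 1 of them (-0.74 for short-term PM2.5 against PBS). After the correction Gabre was lower with long-term than with short-term PM2.5 (-0.48, limma adjusted p = 0.014).

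**Figure D2:**
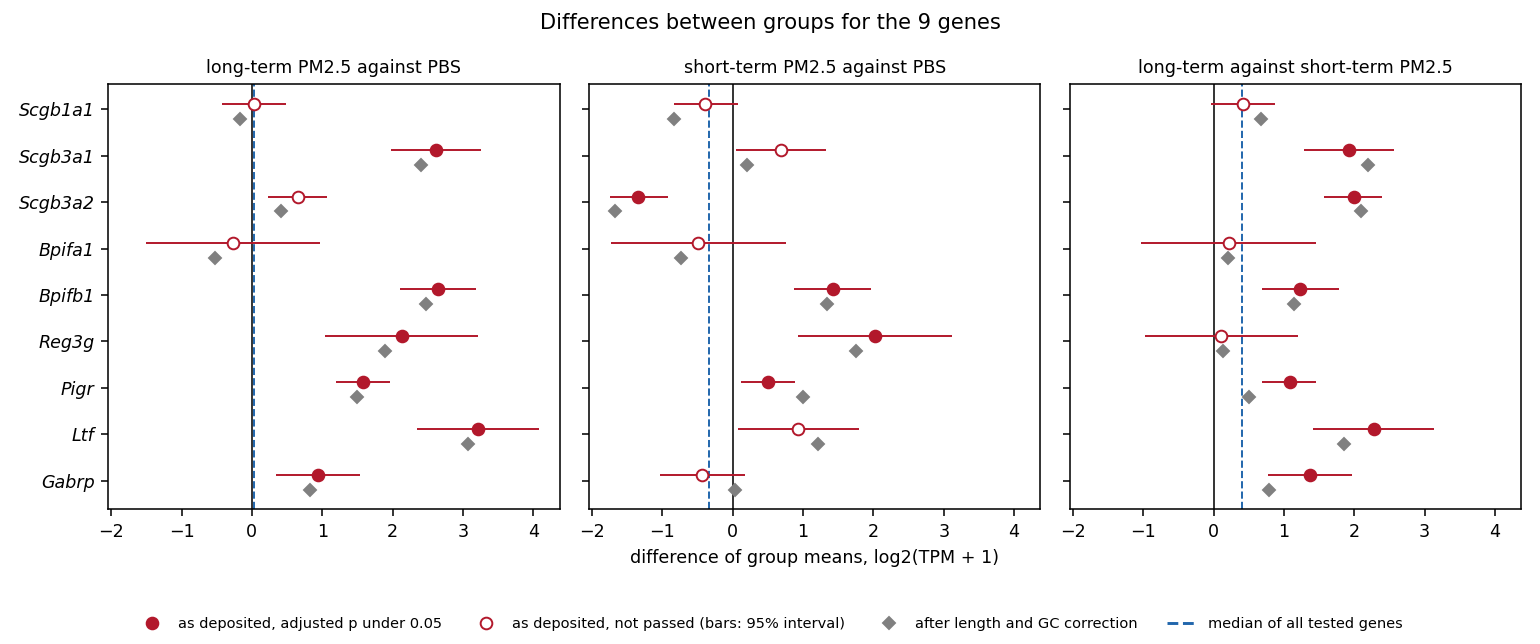
Differences between group means on the log2(TPM + 1) scale for the 9 genes in the 3 comparisons. Filled circles passed limma at an adjusted p under 0.05 and open circles did not, bars are 95% intervals, diamonds are differences after the length and GC correction, the solid line is at 0 and the dashed line at the median of all tested genes (0.03, -0.34 and 0.41). The intervals of Bpifa1 span 0 in all 3 panels, and Scgb3a2 is on opposite sides of 0 for long-term and short-term PM2.5.

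Transcript length bears on the short-term values, since members range from 476 bases (Scgb1a1) to 3849 bases (Pigr). The genes of the set that were higher after short-term PM2.5 lay above the median of genes of like length. Reg3g, with 771 bases, kept a difference of 1.75 after the correction (limma adjusted p = 0.01), and Bpifb1, with 1699 bases, kept 1.34 (limma adjusted p = 0.00112). The short transcripts of Scgb1a1 and Scgb3a2 lay below genes of like length, and their differences were farther from 0 after the correction.

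**Figure D3:**
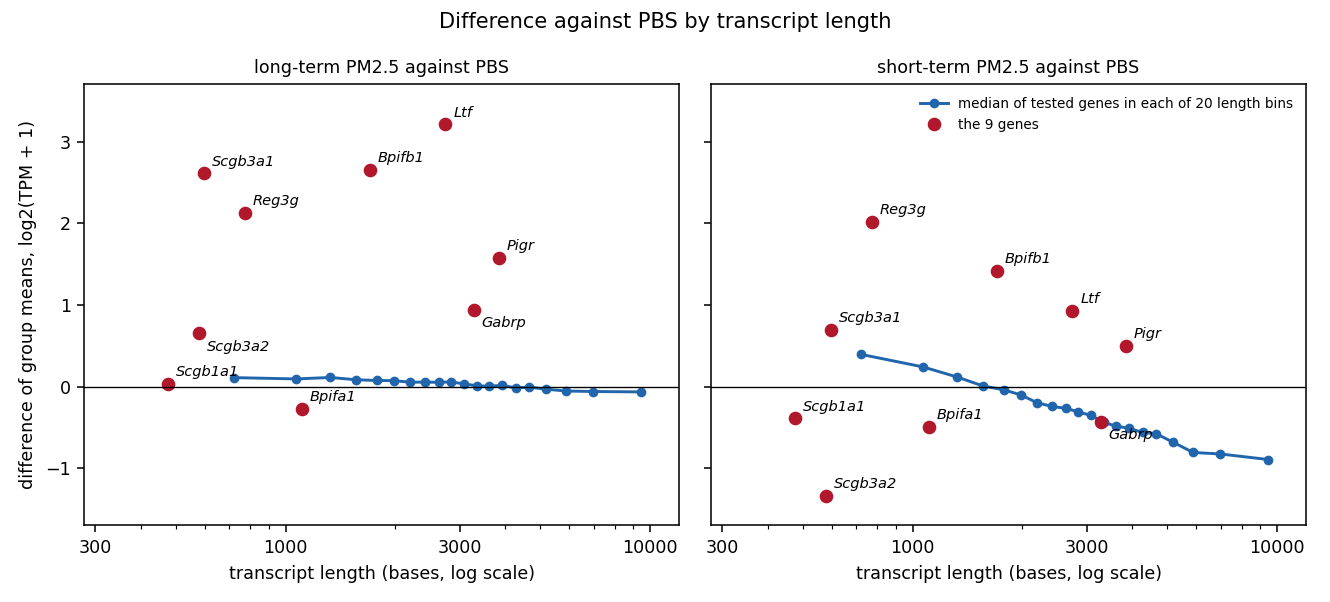
Difference from PBS on the log2(TPM + 1) scale against transcript length in bases on a log axis, for long-term PM2.5 and short-term PM2.5. The blue line joins the medians of tested genes in bins of transcript length and red points are the 9 genes. The line is nearly level for long-term PM2.5 and falls with length for short-term PM2.5, where Scgb1a1 and Scgb3a2 lie below the shortest bin and Reg3g lies above it.

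Levels per transcript length ordered the genes differently in each group. With long-term PM2.5 the order was Scgb1a1, Scgb3a1 (3678 TPM on average), Scgb3a2 (1408 TPM), Bpifb1 (234 TPM), Ltf (190.0 TPM), Bpifa1 (173 TPM), Pigr (154 TPM), Reg3g (141 TPM) and Gabrp (52.8 TPM), where Ltf to Reg3g overlapped with their neighbours in the order. With short-term PM2.5 Scgb3a1 (997 TPM) was above Scgb3a2 (361 TPM) in every library, and from Scgb3a2 to Pigr (73.2 TPM) neighbours overlapped. With PBS Scgb3a2 (898 TPM) led Scgb3a1 (632 TPM) with overlap, followed by Bpifa1 (245 TPM), and the levels of Pigr, Bpifb1, Reg3g, Gabrp and Ltf, from 51.0 down to 22.0 TPM, overlapped from each to the next. Ltf had the lowest mean of the 9 genes with PBS and the 5th highest with long-term PM2.5, where it was not apart from the genes after it.

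Ratios within a library do not depend on a scaling factor of the library, although they do depend on its trend with transcript length, and were taken to Scgb1a1, the most abundant gene of the set. The log2 ratio of Scgb3a1 to Scgb1a1 was -5.40, -5.54 and -5.41 with long-term PM2.5 and -8.56, -8.18 and -7.35 with PBS, a 5.99-fold higher ratio. That of Ltf was 9.53-fold higher, that of Bpifb1 6.28-fold, that of Reg3g 4.43-fold, that of Pigr 2.96-fold, that of Gabrp 1.91-fold and that of Scgb3a2 1.53-fold, with no overlap between long-term and PBS libraries in any of these 7 genes (exact permutation test, two-sided p = 0.1 each, the smallest that 3 against 3 libraries allow). Only the ratio of Bpifa1 overlapped, with a log2 difference of -0.30. How many of all genes did not overlap in this ratio was not computed. In TPM itself, long-term and PBS libraries did not overlap in 43.2% of all genes. With short-term PM2.5 the ratio of Reg3g was 5.48-fold, that of Bpifb1 3.55-fold and that of Pigr 1.86-fold higher than with PBS. That of Scgb3a2 was 1.93-fold lower, all again without overlap and at exact p = 0.1. TPM itself did not overlap between short-term and PBS libraries in 60.3% of all genes. Scgb1a1 itself was lower in every short-term than in every PBS library, with a difference of -0.39, or -0.04 relative to the median of all genes. After the length and GC correction its difference was -0.84, which by itself raises a corrected ratio to it. The log2 difference of the ratio of Pigr was 0.90 for these libraries and 1.84 after the length and GC correction, that of Ltf 1.36 and 2.05, and that of Gabrp -0.07 and 0.87. Between the exposures the log2 difference of the ratio of Pigr was 0.67 and turned to -0.17 after the correction, that of Gabrp was 1.0 and 0.12, that of Ltf 1.89 and 1.19, and that of Bpifb1 0.82 and 0.47. The ratio of Scgb3a2 to Scgb1a1 was the tightest in PBS, at -7.52, -7.43 and -7.41.

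**Figure D4:**
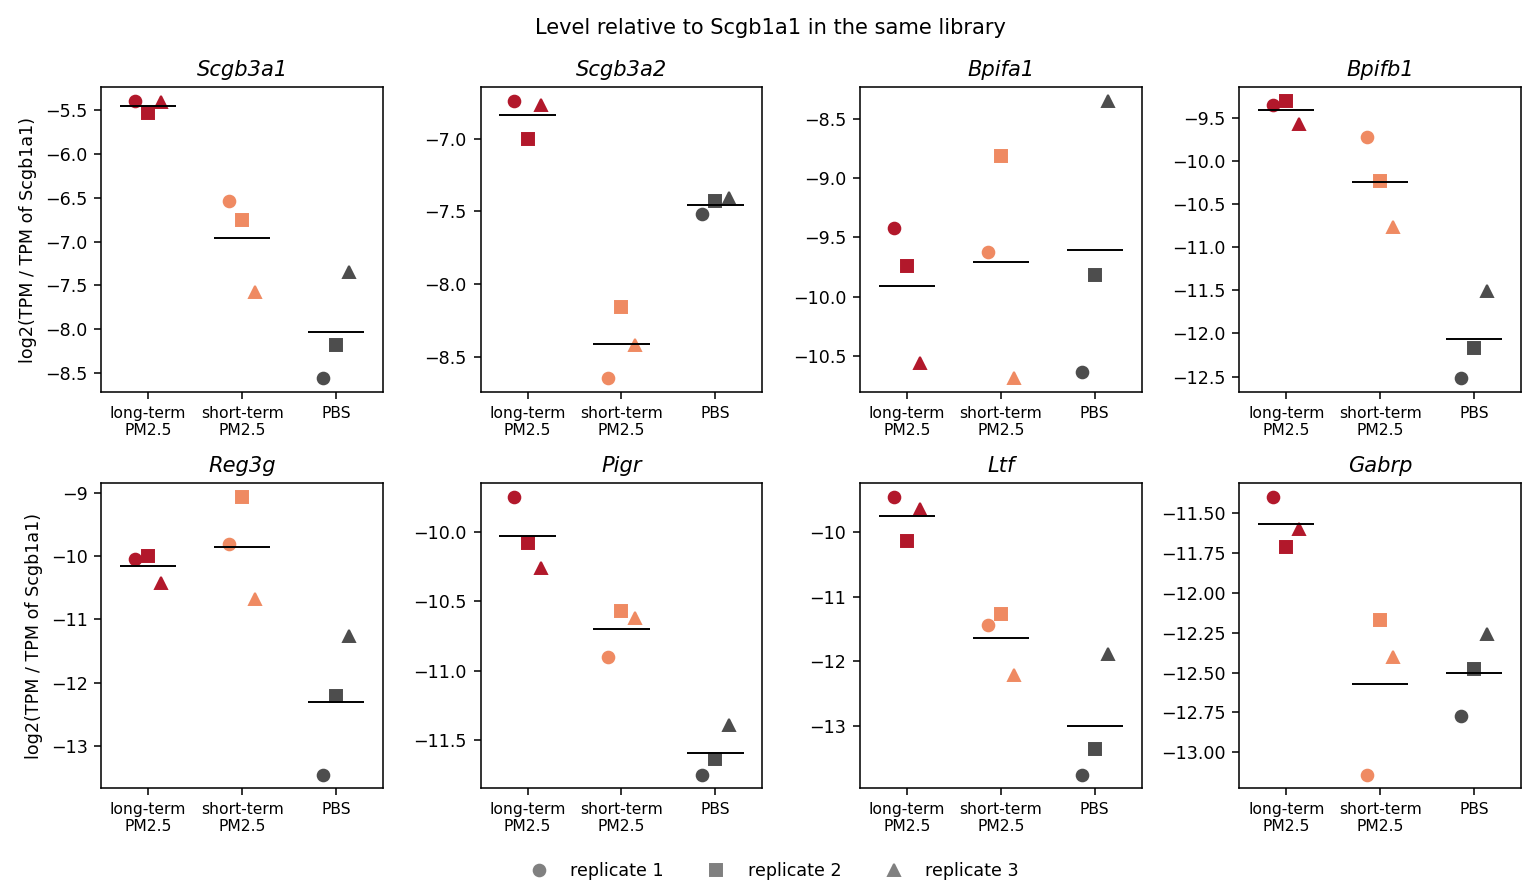
Log2 ratio of the TPM of each gene to the TPM of Scgb1a1 in the same library, 1 panel a gene, with 1 point a library (marker shape gives the replicate number) and a line at the mean of the group; the vertical range differs between panels. Ratios with long-term PM2.5 lie above PBS in every panel but that of Bpifa1, and ratios with short-term PM2.5 lie below PBS for Scgb3a2.

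Replicates of PBS were far more even for some genes than for others. The highest PBS library was 4.81 times the lowest for Bpifa1, 4.48 times for Reg3g, 3.56 times for Ltf, 2.27 times for Scgb3a1 and 1.97 times for Bpifb1, and in each of these 5 genes PBS replicate 1 was the lowest and PBS replicate 3 the highest library. Scgb1a1, Scgb3a2, Pigr and Gabrp spanned 1.25 to 1.5 times. In the long-term libraries the largest span was 1.92 times, for Bpifa1, and all others were at most 1.54 times. The PBS replicate with the highest levels of these 5 genes also had the highest summed neutrophil level, 610 TPM against 380.4 and 399.5 TPM, and its part in their spread was not tested.

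Across the 9 libraries, which share their 3 groups, Scgb3a1 varied most closely with Ltf (Pearson r = 0.99), Bpifb1 (0.95) and Pigr (0.92) on the log2(TPM + 1) scale. Scgb1a1 varied most closely with Scgb3a2 (r = 0.91), which had its second highest r with Gabrp (0.89). Bpifa1 had r of 0.04 to 0.31 with the other 8 genes. Among 10384 genes outside the set, those most like Scgb3a1 were Spata33 (r = 0.981) and the gel-forming mucin gene Muc5b (0.977), which also led the genes most like Ltf (0.976). The genes most like Pigr were the membrane mucin gene Muc4 (r = 0.993) and the integrin gene Itgax of macrophages and dendritic cells (0.991). Those most like Scgb3a2 were Sirt3 and Cep126 (r = 0.992 each), those most like Gabrp began with Cd24a (0.992), those most like Bpifb1 with Mroh1 (0.985) and those most like Reg3g with Clec4a1 (0.974). Chia1, an acidic chitinase, was most like Scgb1a1 (r = 0.958), and no gene came closer to Bpifa1 than Rnaseh1 (0.825). With 9 libraries in 3 groups, many genes reach a high r.

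Other club cell genes went both ways after long-term PM2.5. Of 13 tested, 2 were higher than with PBS, the mucin gene Muc5b (2.60) and Chad (1.19), against 9.51% of all genes. Scgb1c1 (-0.72) was the 1 lower gene, against 1.72%, and 10 did not pass (median -0.05, against 0.03 over all genes). After the length and GC correction 3 were higher and 4 lower, against 13.1% and 12.9% of all genes. The cytochrome P450 gene Cyp2f2, which activates inhaled toxicants in club cells, was at 1758, 1818 and 1894 TPM with long-term PM2.5, against 2519.6, 2527 and 2703 TPM with PBS (-0.50, limma adjusted p = 0.141), and passed after the correction (-0.68, limma adjusted p = 0.00784). After short-term PM2.5, 10 of the 13 were lower than with PBS and 1, Muc5b, was higher, against 40.3% and 11.7% of all genes. Their median was -0.93, against -0.34 over all genes. Cyp2f2 was at 534, 967 and 885 TPM with short-term PM2.5 (-1.74), and Cbr2, a carbonyl reductase, at 2645, 2826 and 2975 TPM, against 6269.8, 5577 and 5679 TPM with PBS (-1.05). Their summed level was 7209 to 8928 TPM with long-term PM2.5, 3569 to 4363 TPM with short-term PM2.5 and 8939 to 9582 TPM with PBS. Between long-term and short-term PM2.5, 10 of the 13 were higher, against 43.4% of all genes. None was lower by limma, at an unadjusted p under 0.05 either, against 7.08%. After the correction 11 were lower and 1 was higher with short-term PM2.5 than with PBS, against 26.1% and 23.8% of all genes.

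Other secreted defence genes included some that were highest with short-term and some that were highest with long-term PM2.5. Of 15 tested, 9 were higher than with PBS after long-term PM2.5 (median 0.87), against 9.51% of all genes. With short-term PM2.5 9 were higher than with PBS (median 0.41), against 11.7%. None was lower by limma in either comparison, at an unadjusted p under 0.05 either. Of all genes, 1.72% were called lower with long-term and 40.3% with short-term PM2.5. Over all genes the medians were 0.03 and -0.34. Lcn2, which encodes the iron-siderophore binding protein lipocalin 2, was at 1909, 1453 and 1282 TPM with long-term PM2.5, 8878, 7789 and 9001 TPM with short-term PM2.5 and 184, 366 and 272 TPM with PBS. Slpi, a secreted protease inhibitor, and Sftpd, surfactant protein D, were lower with long-term than with short-term PM2.5, with differences of -1.0 and -0.58 (-0.84 and -0.57 after the correction). Tff2, a mucus-stabilising trefoil peptide, was at 44.9, 43.0 and 64.5 TPM with long-term PM2.5, 9.31, 10.5 and 5.58 TPM with short-term PM2.5 and 6.64, 11.6 and 10.6 TPM with PBS. Of the 15, 7 were higher and 5 lower with long-term than with short-term PM2.5, against 43.4% and 7.08% of all genes. After the correction 5 were higher and 6 lower, against 19.2% and 22.2%. Tff2 was then also lower with short-term PM2.5 than with PBS (-0.66, limma adjusted p = 0.0452). The list shares Tff2 with the goblet cell list and Camp, S100a8 and S100a9 with the neutrophil list.

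Markers of other airway and lung cells are given beside the set. Over all genes, 9.51% were higher and 1.72% lower after long-term PM2.5 than with PBS, and 11.7% and 40.3% after short-term PM2.5. With the length and GC correction these shares were 13.1% and 12.9%, and 23.8% and 26.1%. Of 10 tested goblet cell genes 9 were higher after long-term PM2.5 than with PBS (median 2.55), among them the mucin gene Muc5ac (2.81) and Clca1 (6.89), and their summed level was 314 to 391 TPM with long-term PM2.5, 83.5 to 118 TPM with short-term PM2.5 and 65.0 to 74.7 TPM with PBS. After short-term PM2.5, 2 goblet cell genes were higher than with PBS, Slc26a4 (3.10) and Agr2 (1.31). After the length and GC correction 6 were higher and 1 was lower, with Muc5ac at 1.05 (limma adjusted p = 0.000181) and Clca1 at 0.82 (limma adjusted p = 0.00669). Uncorrected they were at 0.28 and 0.30 and did not pass (limma adjusted p = 0.0758 and 0.348). Both genes were near 0 here. Muc5ac was at 0.42, 0.48 and 0.55 TPM with short-term PM2.5 and 0.15, 0.24 and 0.27 TPM with PBS. Clca1 was at 0.30, 1.53 and 0.38 TPM against 0.24, 0.26 and 0.55 TPM, with overlap. Whether the correction suits genes this low was not tested. Of 11 ciliated cell genes 10 were higher after long-term PM2.5 (median 1.07, against 0.03 over all genes). After short-term PM2.5, 1 was higher and 5 were lower (median -0.23, against -0.34 over all genes). After the correction 2 were lower with short-term PM2.5 and the call of a higher gene was lost. Tppp3 then passed as lower with long-term PM2.5 than with PBS (-0.44, limma adjusted p = 0.0334). Of 8 general epithelial genes, long-term PM2.5 had 3 higher and short-term PM2.5 had 5 higher and 1 lower than with PBS. After the correction these counts were 6 higher with long-term and 5 higher with short-term PM2.5. None of 8 alveolar type 2 genes passed in limma between long-term PM2.5 and PBS, with 1 higher at an unadjusted p under 0.05 (summed level 47150.0 to 50090.0 TPM against 44910.0 to 46060.0 TPM). After the correction 1 of them, Abca3, was higher (0.32, limma adjusted p = 0.0233). With short-term PM2.5, 1 alveolar type 2 gene was higher and 2 were lower than with PBS, and 4 were higher and 1 was lower after the correction. Sftpc was lower in both, at -0.65 (limma adjusted p = 0.00699) and -1.07 after the correction (limma adjusted p = 0.000283). The part of these cell types in the levels of the 9 genes was not tested. None of the 6 submucosal gland genes in the table reached the filter (summed level 0.44 to 1.30 TPM, with 2 genes at 0 in every library). Nor did any of 9 airway cartilage genes (0.12 to 1.12 TPM), and of 9 basal and squamous genes 1 did. How much of the larger airways the samples held was not tested.

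**Figure D5:**
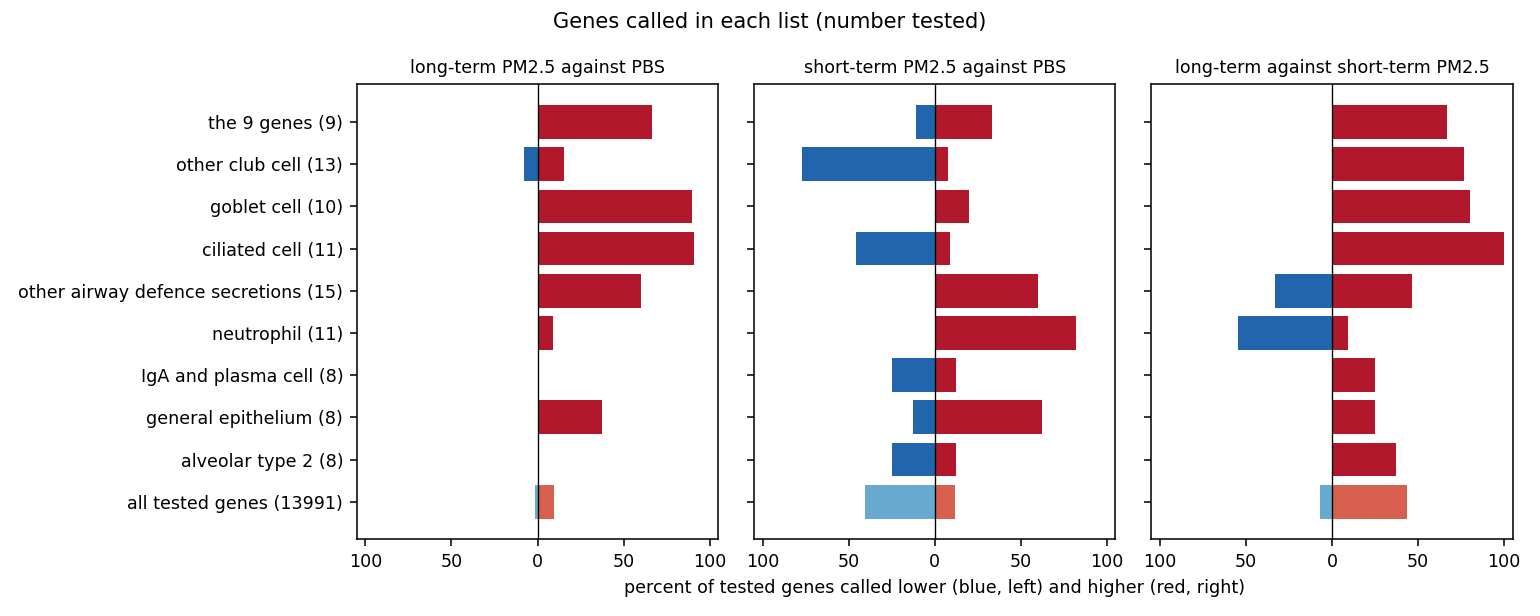
Percent of tested genes called higher (right, red) and lower (left, blue) by limma at an adjusted p under 0.05 in each list, with the number tested in brackets and all tested genes in the bottom row. Of the 9 genes 6 are higher after long-term PM2.5 than with PBS and 3 higher and 1 lower after short-term PM2.5; other club cell genes are mostly lower after short-term PM2.5, where 40.3% of all genes are lower.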

How the data were processed

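Poly(A) RNA of whole lung was made into libraries, treated with duplex-specific nuclease and sequenced on DNBSEQ, per the labels' protocols. The authors deposited 1 table of TPM for 18875 genes and 9 libraries. The submitters' processing notes list the tools HISAT2, Bowtie2, RSEM and DESeq2, without their roles, and the build GRCm38.p6 for 8 of 9 samples. Column sums differed by at most 1.09 TPM, so depth is unknown, and no count test was run. The 13991 genes that reached 1 TPM in 3 or more libraries were fitted as log2(TPM + 1) with limma 3.58.1 (R 4.3.3), 3 groups in 1 fit, 6 residual degrees of freedom, eBayes with an intensity trend, two-sided, and Benjamini-Hochberg adjustment over all tested genes. This scale understates changes of low genes.

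The length and GC correction subtracted from each library natural splines (5 degrees of freedom each) in transcript length and GC content, and left out 199 tested genes without a length. Alternatives were another pseudocount, 2 other filters, median-ratio and quantile scaling, a replicate block, a fit of only 2 groups, robust eBayes, no intensity trend and each library left out. The fit was tested on simulated data. The 9 genes, the marker lists and the motifs were chosen with earlier results of these data known, so no list was tested as a set. From marker lists up to 3 genes with the smallest p in a comparison are named, with Gabra3, Gabre, Jchain, Sftpd, Agr2, Cyp2f2 and a few others added after their values were seen. For each gene of the set the 3 genes with the highest Pearson r over the 9 libraries were found, and not all are printed.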

Additional observations from a re-analysis of the deposited data

Results flagged for a closer look

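Long-term and short-term PM2.5 differed from the shared PBS libraries by different amounts in 6 of the 9 genes, by the limma test of long-term against short-term PM2.5, which is the test of the difference between the 2 effects. The long-term minus short-term difference was 2.28 for Ltf (3.21 with long-term and 0.93 with short-term PM2.5, each against PBS). It was 1.99 for Scgb3a2 (0.65 and -1.34), 1.93 for Scgb3a1 (2.61 and 0.69), 1.37 for Gabrp (0.94 and -0.43), 1.23 for Bpifb1 (2.65 and 1.42) and 1.08 for Pigr (1.58 and 0.50). Adjusted p in limma ranged from 0.000106 for Scgb3a2 to 0.00366 for Bpifb1. In every one of these genes all 3 long-term libraries were above all 3 short-term libraries. Libraries of these groups did not overlap, in either direction, in 60.1% of all tested genes. All 6 calls were kept in all 19 alternatives, while 50.5% of all tested genes were called in this comparison, with a median difference of 0.41. Transcript length moved with the short-term libraries. After the length and GC correction the 6 differences were 1.86 for Ltf, 2.09 for Scgb3a2, 2.19 for Scgb3a1, 0.79 for Gabrp, 1.14 for Bpifb1 and 0.50 for Pigr.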

How the results depend on the processing

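Over 19 alternatives, 462 of 513 differences of single genes kept their direction and side of the threshold, 21 lost their call, 18 gained one and 12 changed sign. Counted among the 462 is Scgb1a1 with quantile scaling, which has no direction. Quantile scaling gives the top gene of every library the same value, so its difference was fixed at 0. The number of the 9 genes called higher ranged from 4 to 7 between long-term PM2.5 and PBS and from 6 to 7 between the 2 exposures. Between short-term PM2.5 and PBS it was 3 and ranged from 2 to 5. It was 2 with no filter, with the 2 groups alone, without short-term replicate 2 or without PBS replicate 1. It was 5 with median-ratio scaling. The number lower was 1, or 2 with no intensity trend, robust eBayes or the length and GC correction, and 1 to 2 with a library left out. The number of all genes called higher moved as well. For long-term PM2.5 against PBS it was 1330, and 748 to 2500 in the alternatives. Between the exposures it was 6070, and 2643 to 8057. For short-term PM2.5 against PBS it was 1632, and 1215 to 3467, with 3421 under median-ratio scaling.

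Sign changes touched uncalled values. Scgb1a1, long-term PM2.5 against PBS, was 0.03, -0.01 with median-ratio scaling, -0.17 after the length and GC correction and -0.03 to 0.14 with a library left out. With a library left out Bpifa1 ranged from -0.83 to 0.30 (long-term PM2.5 against PBS), -1.05 to 0.08 (short-term PM2.5 against PBS) and -0.24 to 0.71 (long-term minus short-term PM2.5), and Reg3g from -0.26 to 0.54 in the last. With median-ratio scaling the last was -0.17 for Bpifa1 and -0.28 for Reg3g. Gabrp, short-term PM2.5 against PBS, was 0.03 after the correction. Log2 ratios to Scgb1a1 with a library left out ranged for Bpifa1 from -0.82 to 0.32, -0.62 to 0.53 and -0.69 to 0.25 in the same order, for Reg3g from -0.72 to 0.08 (between the exposures), and for Gabrp from -0.27 to 0.22 (short-term PM2.5 against PBS). After the correction they were -0.17 for Pigr (between the exposures), 0.11 for Bpifa1 and 0.87 for Gabrp (both short-term PM2.5 against PBS).

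Over all genes, 1571 were called for long-term PM2.5 against PBS, 3578 after the correction, 2521 with quantile scaling, 3881 with the 2 groups alone, 920 at a mean TPM of at least 5 and 853 to 3157 with a library left out. Between the exposures the number was 7061, and 4621 to 9168 with a library left out. Calls lower were 15.3% of calls between long-term PM2.5 and PBS, 77.5% between short-term PM2.5 and PBS and 14% between the exposures. With median-ratio scaling they were 25.9%, 53.2% and 42.3%, with quantile scaling 43.3%, 52.2% and 49.5%, and after the correction 49.6%, 52.3% and 53.6%. With the 2 groups alone the first was 35.6%, and 31.8% without short-term replicate 1. Causes of these changes were not tested.

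Replicate numbers did not pair the libraries, with correlations of -0.286 to 0.262 for the same number and -0.272 to 0.341 for other numbers. With the replicate number as a block, 6 of the 9 genes were higher between long-term PM2.5 and PBS, 3 higher and 1 lower between short-term PM2.5 and PBS and 6 higher between the exposures, and over all genes 1125, 6376 and 6111 were called.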
